A study of Mus musculus with 56 samples.

Results

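The 2'-5'-oligoadenylate synthetase (OAS) genes Oas1a, Oas1b, Oas1g, Oas2, Oas3, Oasl1 and Oasl2 were described across the sorted cells of mouse rectal tumors. The 7 genes were chosen by gene symbol, with the outcome of the authors' own comparisons of these samples already known, so no value given here is independent of that choice. All 7 were listed in each of the 10 deposited tables, which held 53819 to 55453 genes. The tables also held 5 further Oas genes, Oas1c, Oas1d, Oas1e, Oas1f and Oas1h.

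The series had 56 samples of bulk RNA sequencing from age-matched female C57BL/6J mice. Each bore an orthotopic tumor of MC38, a mouse colon carcinoma line, implanted in the rectum. Short course radiotherapy (SCRT) was given as 5 fractions of 5 Gy, and the cells were taken on day 14. Cancer-associated fibroblasts (CAFs) came from 5 untreated and 10 SCRT tumors, and tumor cells likewise from 5 untreated and 10 SCRT tumors. CD8+ T cells came from 5 untreated and 10 SCRT tumors in 1 experiment. In another experiment every mouse received SCRT, and CD8+ T cells came from 5 samples labeled IgG, the control antibody, and 6 labeled anti-IFNAR, an antibody that blocks the type I interferon receptor. The study's text gives the sizes of these antibody groups the other way round, and the labels state no response to SCRT for a single sample. CAFs were sorted in the study as cells without CD45, CD31 and GFP that carried PDGFR, podoplanin and Ly6C, and tumor cells by their GFP.

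OAS enzymes are sensors of double-stranded RNA. When bound to it, the active synthetases join ATP into short chains with 2'-5' links, known as 2-5A. The OAS genes are classical interferon-stimulated genes, switched on through the type I interferon receptor (Ifnar1 and Ifnar2), and such genes often carry DNA elements with repeated GAAA.

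The promoters of Oas1a, Oas1g and Oas3 are shown because each held the paired GAAA element, GAAANNGAAA or TTTCNNTTTC on the other strand, within 250 bases before the start of the gene. The promoter of Oas1c is shown because it held the element of Oas1a turned around. The sequences are from RefSeq, on the GRCm38.p6 build, and give the 150 bases before the start on the strand of the gene, with the bases of the element in capitals.
Oas1a: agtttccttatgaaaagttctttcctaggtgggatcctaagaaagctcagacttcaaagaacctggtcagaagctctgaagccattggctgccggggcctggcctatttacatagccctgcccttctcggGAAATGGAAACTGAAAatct
Oas1g: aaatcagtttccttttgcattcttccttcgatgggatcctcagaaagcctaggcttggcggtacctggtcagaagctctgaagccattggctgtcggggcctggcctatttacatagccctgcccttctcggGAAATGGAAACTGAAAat
Oas3: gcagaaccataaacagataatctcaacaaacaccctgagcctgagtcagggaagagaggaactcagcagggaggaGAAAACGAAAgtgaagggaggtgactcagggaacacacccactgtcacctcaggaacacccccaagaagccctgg
Oas1c: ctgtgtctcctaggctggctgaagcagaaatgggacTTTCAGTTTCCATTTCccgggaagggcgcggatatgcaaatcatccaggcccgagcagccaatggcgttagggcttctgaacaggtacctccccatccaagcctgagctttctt

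Oas1a and Oas1g carried the same stretch of 16 bases, made of 2 overlapping copies of the element. It lay 5 to 20 bases before the start in Oas1a and 3 to 18 bases before it in Oas1g. The windows of these paralogs were alike along their length, with 129 identical bases in 155 aligned columns, or 83.2%. Oas1c held the same 16 bases on the opposite strand, 99 to 114 bases before its start. Oas3 held a single copy, 66 to 75 bases before its start. The windows of Oasl1 and Oasl2 held no such letters. Oas1b and Oas2 had no entry in the promoter table. Of 32851 mouse promoter windows of the same length, 978 held the element on either strand, or 2.98%, against 3 of the 5 windows found for the 7 genes. Of the further Oas genes, 3 had a window, and those of Oas1f and Oas1h held no such letters. The letters describe these windows and show neither a bound factor nor a cause of any level below.

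In the GENCODE M21 annotation the genes fell into 2 clusters of neighbors, with 60 protein-coding genes between them. Oasl2 and Oasl1 lay side by side. In the other cluster the order was Oas2, Oas3, Oas1e, Oas1c, Oas1b, Oas1f, Oas1h, Oas1g, Oas1a and Oas1d, with no other protein-coding gene among them. Oas1c and Oas1b adjoined on opposite strands, facing away from each other.

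Each table gave 1 mean normalized read count per gene over all the libraries of the fit it came from, treated and untreated together. These means, the authors' own, had 3 distinct sets of values. The first was shared by the 6 CAF and tumor cell tables, whose 30 libraries were linked to them by the labels. The second was shared by the 3 tables of the 15 CD8+ T cell libraries, and the last came from the table of the 11 CD8+ T cell libraries of the antibody experiment. No value per sample was used, so the spread between samples and the depth of a library are unknown, and no difference below was tested. An effect of SCRT or of the antibody, and a difference between CAFs and tumor cells, cannot be read from such means. The sets were normalized separately, and the OAS levels are therefore compared across sets only relative to all genes or as shares within a set, and means printed for several sets are each on their own scale.

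The marker genes matched the labels in part. As a share of the summed means of all genes in a set, the 5 CAF markers, led by Col1a1, made up 0.255% in the CAF and tumor cell set, 0.00524% in the CD8 set and 0.0171% in the antibody set. The 5 CD8+ T cell markers made up 0.000219%, 0.612% and 0.310% in the same order. Relative to all genes, Col1a1 was higher in the antibody set than in the CD8 set, with a centred log2 ratio of 2.50. This was the highest of the 5 CAF markers. Pdpn at 0.91 and Col1a2 at 0.87 were also above 0, with Pdgfra between them and Col1a1. Ly6c1 went the other way, at -1.78. Col1a1 alone gave 1590 of the 1839 normalized counts summed over the CAF markers in the antibody set. The 4 macrophage markers, all above 0 in every set, made up 0.162% in the CD8 set and 0.156% in the antibody set, against 0.00677% in the CAF and tumor cell set. Lyz2, the lysozyme gene of macrophages and other myeloid cells, had the highest mean of the 4. It was 41041 beside 46970 for Cd8a in the CD8 set, and 12107 beside 8470 for Cd8a in the antibody set. Cd8a has the longer exons, and per kilobase of exon Lyz2 was at 31186 and Cd8a at 12914 in the CD8 set. In the antibody set Lyz2 was at 9200 and Cd8a at 2329 on that scale. In the CD8 and antibody sets Csf1r had means of 5066 and 3343, Cd68 of 2923 and 782, and Adgre1 of 1126 and 590. The study sorted CD8+ T cells on CD45 and CD8b, a gate that macrophages should not pass. The 3 B cell markers made up 0.00429% and 0.00579% in the CD8 and antibody sets, and the 2 endothelium markers 0.00599% and 0.00597%. The 3 epithelial markers, Epcam, Krt8 and Krt18, made up 0.00153% and 0.00331% there, against 0.00806% in the CAF and tumor cell set. Epcam, which the study used to identify normal tissue and found lacking in malignant regions, gave 395 of their 474 normalized counts in the CD8 set. In the antibody set over the CD8 set, the centred log2 ratio was 4.45 for Krt8, 0.57 for Epcam and 0.32 for Krt18. The part of macrophages, CAFs, tumor cells and these other cells in the OAS levels of the T cell sets was not tested. In bulk RNA, fewer cells of a type and less RNA per cell cannot be told apart.

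In the CAF and tumor cell set Oasl2, an OAS-like gene, had the highest mean of the 7, at 7016 normalized counts. Oasl1, an OAS-like gene known for restraining translation of Irf7 mRNA, followed at 3865. Oas1a, a synthetase of the small OAS class, had a mean of 2871 and Oas3, the longest synthetase, of 2089. Oas2, of intermediate size, stood at 1079 and Oas1g at 804. Oas1b, known as the flavivirus resistance gene, was the lowest at 227 and is annotated in GENCODE M21 as a polymorphic pseudogene.

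Among CD8+ T cells of the first experiment the order was different, with Oas3 at the head. Its mean was 2698 normalized counts. Oas1a followed at 1249 and Oasl2 at 1084. Oasl1 had a mean of 541, Oas2 of 234, Oas1b of 191 and Oas1g of 127.

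The antibody set also had Oas3 first, with a mean of 788 normalized counts, then Oasl2 at 605. Oas1a was at 226 and Oasl1 at 190, followed by Oas2 at 79.1, Oas1b at 47.1 and Oas1g at 37.9. All 7 genes were lower here than in the CD8 set before any scaling, but so was the typical gene. Over the 12860 genes with a mean of at least 10 in both sets, the median ratio of the antibody set to the CD8 set was -1.94 on the log2 scale.

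**Figure D1:**
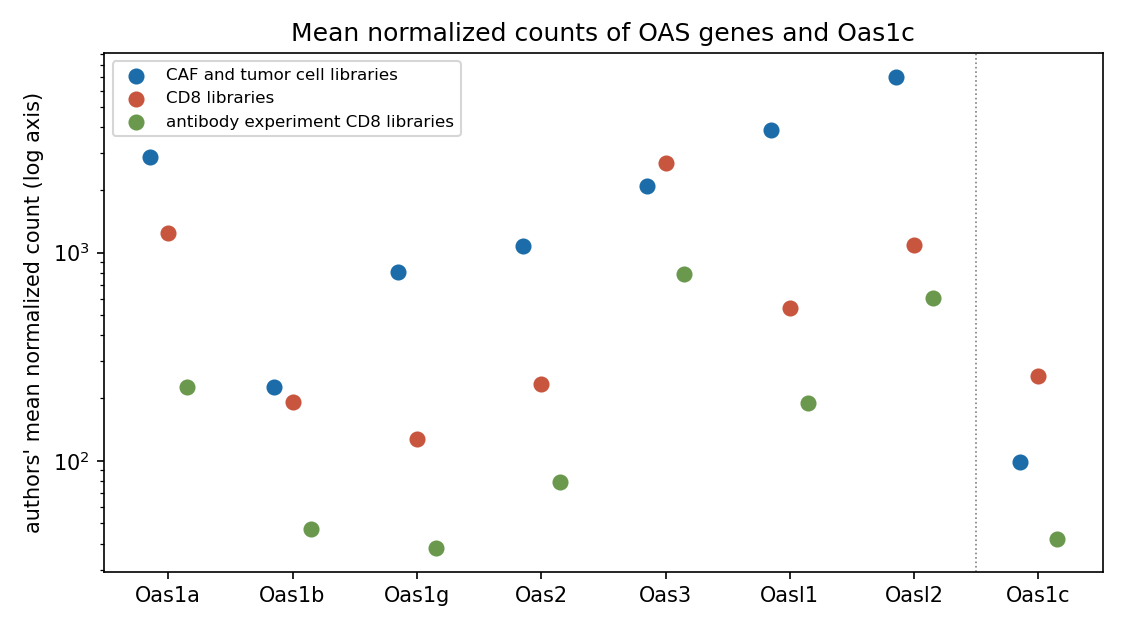
The authors' mean normalized count (log axis) of the 7 OAS genes and Oas1c, with 1 dot for each of the 3 sets of libraries, which were normalized separately and carry no error bar because no value per sample was used. Without scaling by gene length, Oasl2 was the highest OAS gene in the CAF and tumor cell set at 7016. Oas3 was the highest in both T cell sets at 2698 and 788. Per kilobase of exon Oas1a was first in all 3 sets.

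A long transcript gathers more reads than a short one, so the levels of different genes were compared per kilobase of exon. On this scale Oas1a was first in all 3 sets. In the CAF and tumor cell set its mean was 1523 normalized counts per kilobase, next to 1482 for Oasl1 and 1101 for Oasl2. Oas1g at 344, Oas3 at 295 and Oas2 at 242 followed well below, and Oas1b was last at 114. In the CD8 set Oas1a stood at 663 normalized counts per kilobase and Oas3, with exons of 7069 bases in all, at 382. Oasl1 at 207 and Oasl2 at 170 came next, then Oas1b at 95.9, Oas1g at 54.2 and Oas2 at 52.6. In the antibody set Oas1a at 120 and Oas3 at 111 lay close together, with Oasl2 at 94.9, Oasl1 at 72.9, Oas1b at 23.6, Oas2 at 17.8 and Oas1g at 16.2 normalized counts per kilobase. Which neighbors in these orders differ beyond the spread between samples is unknown.

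How high the 7 genes ranked depended on the genes they were set against. Among all genes with a mean above 0, their median rank by mean per kilobase was at percentile 86.5 in the CAF and tumor cell set, 77.3 in the CD8 set and 82.2 in the antibody set. Among genes whose mean reached 10, which leaves out those barely detected, it was at percentile 70.0, 54.9 and 61.9. The median of the 7 was 344 normalized counts per kilobase in the CAF and tumor cell set, against 3.77 for all genes above 0 and 141 for genes whose mean reached 10. For the CD8 set these medians were 170, 7.52 and 132, and for the antibody set 72.9, 4.67 and 46.1. On the narrower ranking Oas1b was below the middle in all 3 sets, at percentiles 45.4, 44.2 and 34.2. Oas1g, at 70.0 in the CAF and tumor cell set, was at 35.2 and 26.9 in the T cell sets, and Oas2, at 62.1, was at 34.8 and 28.4. Oas1a, Oas3, Oasl1 and Oasl2 were above the middle in every set on both rankings. Among all genes above 0, Oas1a was at percentile 96.6 in the CAF and tumor cell set and at 90.8 and 88.2 in the T cell sets. Oas3 was nearly level across the sets, at percentiles 84.9, 85.8 and 87.3 in the same order. Oasl1 was at percentile 96.4 in the CAF and tumor cell set and at 79.4 and 82.2 in the T cell sets.

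As shares of the 7 genes' summed level per kilobase of exon, Oas1a, Oasl1 and Oasl2 made up most of the family in the CAF and tumor cell set, at 29.9%, 29.1% and 21.6%. Oas3 made up 5.79% there. In the CD8 set Oas1a took 40.8% and Oas3 23.5%, with 12.8% for Oasl1 and 10.5% for Oasl2. In the antibody set Oas1a at 26.3%, Oas3 at 24.4% and Oasl2 at 20.8% were nearly even, and Oasl1 took 16.0%. Oas1b, Oas1g and Oas2 each stayed between 2.24% and 6.73% in every set.

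The first place depended on which length was used. Oasl2 has 6374 exonic bases but only 1524 in its longest coding sequence, against 1885 and 1101 for Oas1a. Per kilobase of coding sequence Oasl2 came first in the CAF and tumor cell set with 39.2% and in the antibody set with 37.1%, where Oas1a had 22.2% and 19.2%. Oas1a stayed first in the CD8 set with 33.6%, followed by Oas3 with 23.4%. The larger share of Oas3 in the T cell sets than in the CAF and tumor cell set stood on both lengths.

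**Figure D2:**
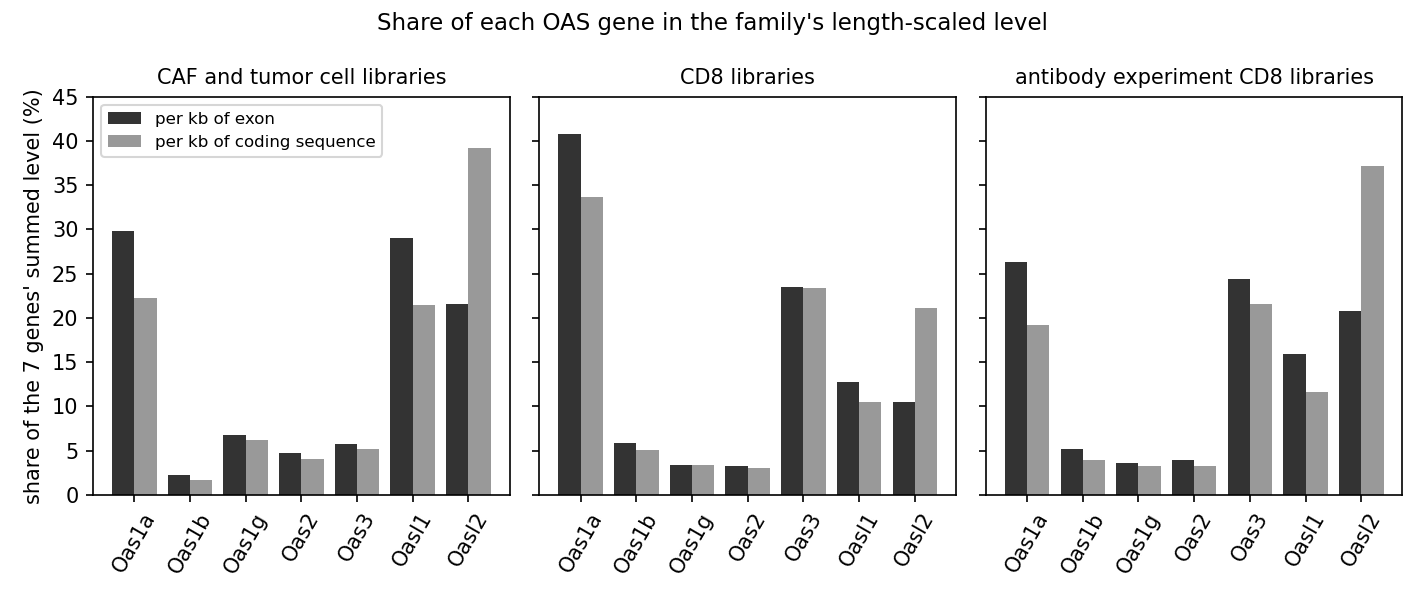
Share (%) of each OAS gene in the summed level of the 7 genes, per kilobase of exon (dark bars) and per kilobase of the longest coding sequence (grey bars), in the 3 sets of libraries. Oas3 had 5.79% per kilobase of exon in the CAF and tumor cell panel, against 23.5% and 24.4% in the T cell panels, and the bars of Oasl2 grew with coding length in all 3.

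The division between Oas1a and Oas1g is uncertain. The reads were single-end and 100 bases long, and of the 1786 windows of 100 bases in the Oas1a transcripts, 730 were found letter for letter in Oas1g, or 40.9%. These were 31.3% of the 2336 windows of Oas1g. A read from such a window fits both genes, and how the authors' counting assigned it is not given in the sources used here. The other 5 members, Oas1b, Oas2, Oas3, Oasl1 and Oasl2, shared no window with another gene.

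Relative to all genes, the family was lower in the CD8 set than in the CAF and tumor cell set, except for Oas3. Ratios of means were taken on the log2 scale and centred on the median of the 12468 genes with a mean of at least 10 in both sets. Oasl1 had the lowest centred log2 ratio at -2.89, then Oasl2 at -2.75, Oas1g at -2.72 and Oas2 at -2.25. Oas1a was at -1.25 and Oas1b at -0.30, whereas Oas3 was at 0.32. The median of the 7 was -2.25, with 6 of 7 below 0, where the centring puts 50% of all genes below 0. The 10th percentile of all genes was -2.36. Oasl1, Oasl2 and Oas1g thus lay below the 10th percentile of all genes, and Oas3 lay within 1 log2 unit of the typical gene. The signs of all 7 were the same as deposited and after scaling by the sum of all means.

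Between the T cell sets the 7 genes fell on both sides of the typical gene, and the highest, Oasl2, was at percentile 79.8 of all genes. Centred on all genes, the log2 ratio of the antibody set to the CD8 set was 1.10 for Oasl2, 0.43 for Oasl1, 0.37 for Oas2, 0.20 for Oas1g, 0.16 for Oas3, -0.08 for Oas1b and -0.53 for Oas1a. All lay between the 10th and 90th percentiles of all genes, -1.17 and 1.83. The median of the 7 was 0.20, with 5 of 7 above 0, where again 50% of all genes lay by construction. The sign of this median depended on the scaling, since it was -0.22 when the sets were scaled by the sum of all means. Oas1g, Oas2 and Oas3 then fell below 0, at -0.22, -0.05 and -0.25, and before any scaling all 7 were below 0. The sets differed in experiment, in antibody and in the genes listed, 55453 in the CD8 set and 53819 in the antibody set. The CD8 set also held untreated tumors and the antibody set held none, so these differences cannot be told apart.

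**Figure D3:**
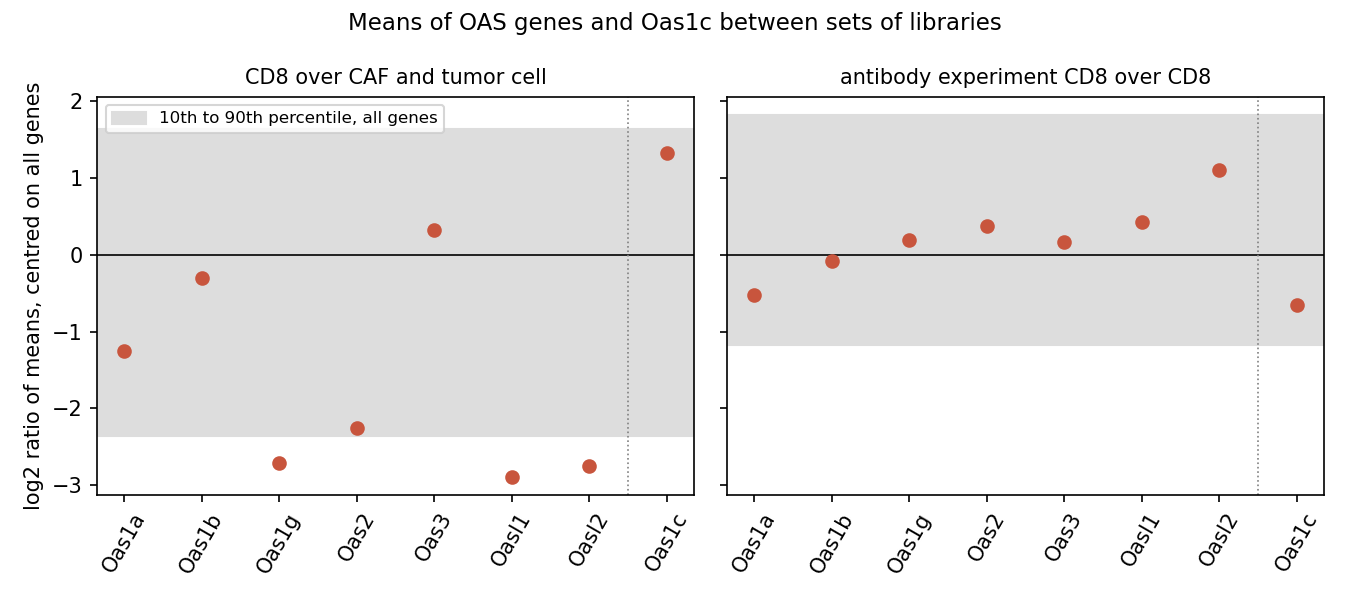
Log2 ratio of the authors' means between sets of libraries, centred on the median of all genes with a mean of at least 10 in both, for the 7 OAS genes and Oas1c (dots), with the 10th to 90th percentile of all genes as a grey band. Oasl1, Oasl2 and Oas1g lay under the band for CD8 over CAF and tumor cell, and all dots lay within the band for the antibody experiment, IgG and anti-IFNAR libraries pooled, over CD8; the signs of Oas1g, Oas2 and Oas3 in that panel turned when the sets were scaled by the sum of all means.

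Of the other Oas genes, Oas1c was the one with more than a few counts. It had a mean of 98.5 normalized counts in the CAF and tumor cell set, 255 in the CD8 set and 42.2 in the antibody set. Its centred log2 ratio of the CD8 set to the CAF and tumor cell set was 1.32, opposite in sign to that of Oas1a at -1.25. Oas1d, Oas1e, Oas1f and Oas1h had means of 0 to 2.40 normalized counts in every set, and Oas1d, Oas1e and Oas1f were listed at 0 in the CD8 set. With these 5 genes added to the family, the share of Oas1a per kilobase of exon was 29.6% in the CAF and tumor cell set, 38.3% in the CD8 set and 25.2% in the antibody set.

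Pde12, a phosphodiesterase that degrades 2-5A, had means of 1297, 2014 and 484 normalized counts in the CAF and tumor cell, CD8 and antibody sets, and a centred log2 ratio of the CD8 set to the CAF and tumor cell set of 0.58. Abce1, a factor of ribosome recycling, had means of 8868, 5713 and 1196 normalized counts in the same order and a centred log2 ratio of -0.69. Both lay within the 10th to 90th percentile of all genes, -2.36 to 1.64.

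Among the other sensors of double-stranded RNA, the levels did not follow 1 direction. Ddx58, which encodes RIG-I, had a centred log2 ratio of the CD8 set to the CAF and tumor cell set of 1.01 and the adaptor gene Mavs of 0.20. Ifih1, which encodes MDA5, was at -0.88 and Eif2ak2, which encodes the kinase PKR, at -0.56. All 4 were above Oasl1, Oasl2, Oas1g, Oas2 and Oas1a on this scale. Between the T cell sets Ifih1 at 1.09 and Eif2ak2 at 1.07 had centred log2 ratios close to that of Oasl2 at 1.10, and Ddx58 was at -0.05 and Mavs at -0.39.

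Ratios of the CD8 set to the CAF and tumor cell set were also taken for 5 genes of interferon signalling. All but Irf7 were above the typical gene, where the centring puts 50% of all genes. The signal transducer Stat2 had a centred log2 ratio of 0.38 and Irf9 of 0.90. The receptor chains Ifnar1 and Ifnar2 were at 1.02 and 1.03. Irf7, an interferon-stimulated transcription factor that drives interferon genes, was at -0.41. Per kilobase of exon Irf7 was above every OAS gene in all 3 sets, with means of 2122, 1658 and 323 normalized counts.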

How the data were processed

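RNA of sorted cells was amplified with the SMARTer Ultra Low Input kit and made into libraries with NexteraXT, which does not mark strand. The submitters' processing notes name fastp 0.20.1, STAR 2.7.6a, GENCODE M21, DESeq2 1.28.1 and R 4.0.2, with mm39 as the build. The read counter is not given in the sources used here. The deposited signal was the mean normalized count of each gene over the libraries of a fit, made by the authors in DESeq2, which divides counts by size factors. The tables also held the authors' comparisons (log2 fold change, statistic, p-value and adjusted p-value), which were not used.

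Tables with equal means were treated as 1 fit. Gene lengths were taken from GENCODE M21 on GRCm38, as merged exons or the longest coding sequence, and no coordinates are given since the builds differ. The CD8 set listed 55453 genes, and the CAF and tumor cell set and the antibody set 53819 each. A length was found for 98.7% of genes above 0 in the CD8 set. It was found for 95.0% in the CAF and tumor cell set and for 95.4% in the antibody set. The effect of this difference on the ratios was not tested. Ratios between fits were centred on the median over genes whose mean reached 10 in both. The tables held no value per sample, so no test was made. The genes described were the 7 members, the other Oas genes and a list of pathway genes, and all members and lists were chosen with earlier results of these data known. Some genes of the list are not reported here. The scripts used Python 3.11.15, pandas 2.3.3 and numpy 2.4.6. Only the centring of ratios was tested on simulated data. The alternatives were other ranked genes, lengths, family definitions and scalings.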

Additional observations from a re-analysis of the deposited data

How the results depend on the processing

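Without any length, Oas1a took 16.0% of the family's summed mean in the CAF and tumor cell set, 20.4% in the CD8 set and 11.5% in the antibody set. The median log2 ratio of the 7 genes in the antibody set over the CD8 set was -1.74 as deposited and -0.22 after scaling by the sum of all means, against the centred 0.20. Over the CAF and tumor cell set it was -1.74 centred, -2.30 after scaling by the sum and -3.67 as deposited. As deposited, the median of all genes with a mean of at least 10 in both of these sets was -1.93. Of 105 single-gene percentiles and ratios under the alternatives, 79 stayed within 1.5 times of the reported value with the same sign. Another 21 moved by more, and 6 of these were ratios that turned their sign as deposited. Among the 6 were Oas1g, Oas2, Oas3, Oasl1 and Oasl2 in the antibody set over the CD8 set. The last was Oas3 in the antibody set over the CAF and tumor cell set. A further 5 ratios turned their sign within 1.5 times. Oas1b in the antibody set over the CD8 set turned to 0.04 when centred on genes with a mean of at least 50. Scaled by the sum, Oas1g, Oas2 and Oas3 in that pair turned, and Oas3 over the CAF and tumor cell set turned to -0.04. The tables of a fit were grouped by their equal means, so reading another of them tests nothing. Coding lengths were taken from GENCODE, in place of the planned protein lengths, because no protein table was at hand. No paired analysis was possible because the tables hold no value per sample, and for the same reason no replicate could be left out. Depth per library is unknown, so no floor for low genes such as Oas1d can be given.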
